A study of Mus musculus with 4 samples.

Results

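The genes described here encode the proteasome: the subunits of its core particle and 19S regulator, its activator caps, and the chaperones that build it. They were found by gene name (Psma to Psmg followed by a digit), without the 3 inducible catalytic subunits Psmb8, Psmb9 and Psmb10, and with at least 100 UMIs (unique molecular identifiers, one per captured transcript) over the 4 libraries. Of 47 genes with such a name, 45 met the minimum, among 31053 genes counted and 11773 with as many UMIs. Psma8, a testis form of an alpha subunit, had 10 UMIs, and Psmb11, a beta subunit of thymic cortical epithelium, had 2, so both were left out. The members were 7 alpha ring subunits, 7 beta ring subunits, 9 subunits of the 19S base, 8 subunits of the 19S lid, 5 activator genes, 8 assembly factors or inhibitors, and Psmc3ip, which shares the name only and encodes a factor of homologous recombination.

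The cells were donor T cells from mice with graft-versus-host disease, in which transplanted T cells attack the recipient. BALB/c recipients received 900 cGy and T cell-depleted bone marrow of C57BL/6 donors that carried both CD45.1 and CD45.2, together with regulatory T (Treg) cells, and CD4+ and CD8+ conventional T cells followed 2 days later. The Treg cells were sorted from spleen as CD4+ Foxp3-GFP+ CD25hi, carried CD45.2 and not CD45.1, and had 1 of 4 genotypes: CD226-/-TIGIT-/- (double KO), CD226+/+TIGIT-/- (TIGIT KO), CD226-/-TIGIT+/+ (CD226 KO) or CD226+/+TIGIT+/+ (WT). The conventional T cells were CD45.1+ and wild type in every library, and donor T cells (H-2Kb+ TCRb+) were taken from recipient spleens 8 days after induction, 1 library per genotype, with 3 pooled per sample. The labels do not settle whether the 3 were recipients, donors or both, and the double KO and TIGIT KO libraries were run on lane 4 and the CD226 KO and WT libraries on lane 3, so lane and TIGIT status cannot be told apart.

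Origin was read from barcoded antibodies: cells whose log2 of CD45.1 over CD45.2 tag counts was below -0.6 were taken as Treg-origin, and those above 2.2 as conventional. The conventional cells were divided into CD8 and CD4 by their transcripts. In all, 1537 Treg-origin, 11015 conventional CD8 and 11761 conventional CD4 cells were used, 332 to 462, 2098 to 3415 and 2750 to 3100 per library. Their median depth was 3921.5 to 5372 UMIs in Treg-origin, 8887 to 11901 in CD8 and 7039.5 to 9013 in CD4 cells. A Foxp3 UMI was found in 16.9 to 26.5% of Treg-origin, 1.19 to 4.04% of CD8 and 0.675 to 1.53% of CD4 cells, and 10 Treg markers summed to 2612 to 2828 CPM (UMIs scaled to equal totals, as below) in Treg-origin cells, against 413 to 461 in CD8 and 627 to 779 in CD4 cells. Cd226 had 4.39 and 4.01 CPM in the Treg-origin cells of the libraries labelled double KO and CD226 KO, against 32.5 and 31.2 in those labelled TIGIT KO and WT. Tigit had 5.86 and 8.60 in double KO and TIGIT KO, against 5.15 and 9.11 in CD226 KO and WT. The sources used here do not say which part of Tigit is deleted, so 3' tags of 9 to 21 Tigit UMIs per library check nothing. Markers of other cells were uneven among Treg-origin cells: 8 myeloid genes summed to 38.1 and 1416 CPM in double KO and TIGIT KO and to 58.9 and 1457 in CD226 KO and WT, and in CD226 KO alone 7 B and plasma cell genes reached 943 and 5 erythroid genes 996, while the NK genes Ncr1, Klra8 and Klra4 were at 0. Xist UMIs were found in 88.3 to 91.3% of Treg-origin, 1.0 to 1.19% of CD8 and 0.355 to 0.581% of CD4 cells, and Y-linked UMIs in 1.20 to 2.93%, 63.7 to 73.2% and 58.3 to 67.1%. Donor sex followed origin, so sex and origin cannot be told apart in any comparison of Treg-origin with conventional cells. Of 39421 barcodes, 172 were shared by 2 or more libraries.

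The proteasome degrades proteins marked with ubiquitin. Its core is a barrel of alpha and beta rings, with the protease sites on Psmb5 (chymotrypsin-like), Psmb6 (caspase-like) and Psmb7 (trypsin-like). The 19S regulator binds ubiquitin chains, removes them and feeds the unfolded protein into the core: its base holds the ATPase ring (Psmc1 to Psmc6) and the scaffolds Psmd1 and Psmd2, and its lid holds the deubiquitinase Psmd14. Other caps open the core without ATP: PA28 alpha-beta (Psme1 and Psme2), PA28 gamma (Psme3, in the nucleus) and PA200 (Psme4). Interferon gamma induces PA28 alpha-beta together with Psmb8, Psmb9 and Psmb10, which replace the 3 standard proteases in the immunoproteasome, a form that lymphocytes carry constitutively and that shapes the peptides shown on MHC class I. The transcription factor Nrf1 (Nfe2l1) is known to raise the subunit genes together through antioxidant response elements when the proteasome is inhibited.

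Promoter sequences are shown for 6 members whose levels differed between the T cell classes, to set the interferon-inducible cap gene beside a nuclear cap gene, standard proteases and 19S subunits. They are the bases before the transcription start in RefSeq's GRCm38.p6, which is mm10, the build named for the counts, cut where an exon of GENCODE vM21 begins. The start is the one the promoter table gives. For Psmb6 and Psmd2 the RefSeq gene model as a whole begins further upstream, so their stretches lie partly (Psmb6) or wholly (Psmd2) inside it, before the first GENCODE exon. Capitals mark an antioxidant response element (TGACNNNGC) in Psmb5 and Psmb6 and ETS sites (CCGGAA) in Psmd2 and Psmd11, on either strand.
Psme2, chr14:55591114-55591201, minus strand: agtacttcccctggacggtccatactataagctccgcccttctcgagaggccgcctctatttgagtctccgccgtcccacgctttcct
Psme3, chr11:101316113-101316212, plus strand: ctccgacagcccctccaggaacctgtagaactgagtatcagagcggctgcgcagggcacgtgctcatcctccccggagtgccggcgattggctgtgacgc
Psmb5, chr14:54618023-54618095, minus strand: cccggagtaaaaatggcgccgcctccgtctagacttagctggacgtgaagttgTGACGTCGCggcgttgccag
Psmb6, chr11:70525257-70525356, plus strand: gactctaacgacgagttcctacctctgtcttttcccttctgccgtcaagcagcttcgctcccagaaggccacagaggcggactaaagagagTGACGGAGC
Psmd2, chr16:20651552-20651651, plus strand: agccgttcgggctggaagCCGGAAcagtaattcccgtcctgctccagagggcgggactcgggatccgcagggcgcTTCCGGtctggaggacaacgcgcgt
Psmd11, chr11:80428515-80428614, plus strand: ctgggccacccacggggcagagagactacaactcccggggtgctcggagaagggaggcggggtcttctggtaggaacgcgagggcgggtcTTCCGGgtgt
The ETS letters were present in the 250 bases before the start in 17 of 38 members with a promoter entry, against 12.2% of 27025 promoter windows in all, and in 11 of 25 core and 19S subunits among them. The antioxidant response element was present in 5 of 38, against 10.1% of all windows, the GC box (GGGCGG) in 21, against 32.9%, and the CCAAT box in 13, against 34.5%. The interferon-stimulated response element occurred in 3 members (Psmb3, Psmd4 and Psmd9), against 3.04% of all windows, and the gamma-activated site (TTCNNNGAA) in 1, Psmg1, against 7.18%. Both strands were searched, a match is a run of letters and not a bound site, and 7 members had no entry. The windows in all were not matched to the members by expression or base content. These shares therefore do not show whether a motif is particular to proteasome genes.

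The genes spanned a wide range of levels, with core ring and PA28 genes at the top. Levels are CPM, the UMIs of a gene per 1000000 UMIs of the summed cells of a class in a library, and because UMIs tag the 3' end of a transcript they do not scale with its length. In Treg-origin cells Psme1 stood highest, at 668 ± 26.8 CPM (SD over 4 libraries), followed by Psme2 at 613 ± 24.5 and the beta subunit Psmb1 at 606 ± 22.8. Psmc3ip at 18.7 ± 1.33, Psme4 at 20.4 ± 3.40 and Psmd5, a chaperone of the 19S base, at 23.3 ± 1.85 stood lowest. Psme1 exceeded Psme2 in each of the 4 libraries, but their ranges over libraries overlapped, as did those of the next neighbours at both ends. The core rings were the most abundant parts: alpha subunits summed to 2766 ± 54.8 CPM in Treg-origin, 2969 ± 107 in CD8 and 2934 ± 61.7 in CD4 cells, and beta subunits to 2779 ± 81.9, 3022 ± 65.1 and 3012 ± 62.1. The base summed to 1391 ± 62.0, 1623 ± 57.1 and 1557 ± 40.9 CPM, and the lid to 1407 ± 34.9, 1723 ± 50.0 and 1645 ± 39.6. The 45 genes together made up 1.01% of UMIs in Treg-origin, 1.08% in CD8 and 1.06% in CD4 cells. Per cell the members had 45.6 to 64.2 UMIs in Treg-origin, 112 to 155 in CD8 and 87.4 to 116 in CD4 cells, so a CPM level is a share of the transcripts of shallower cells in the first class. Subunits of 1 ring were not equal in level: in Treg-origin cells Psma6 had 204 ± 2.06 CPM and Psma7 580 ± 35.3 CPM.

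**Figure D1:**
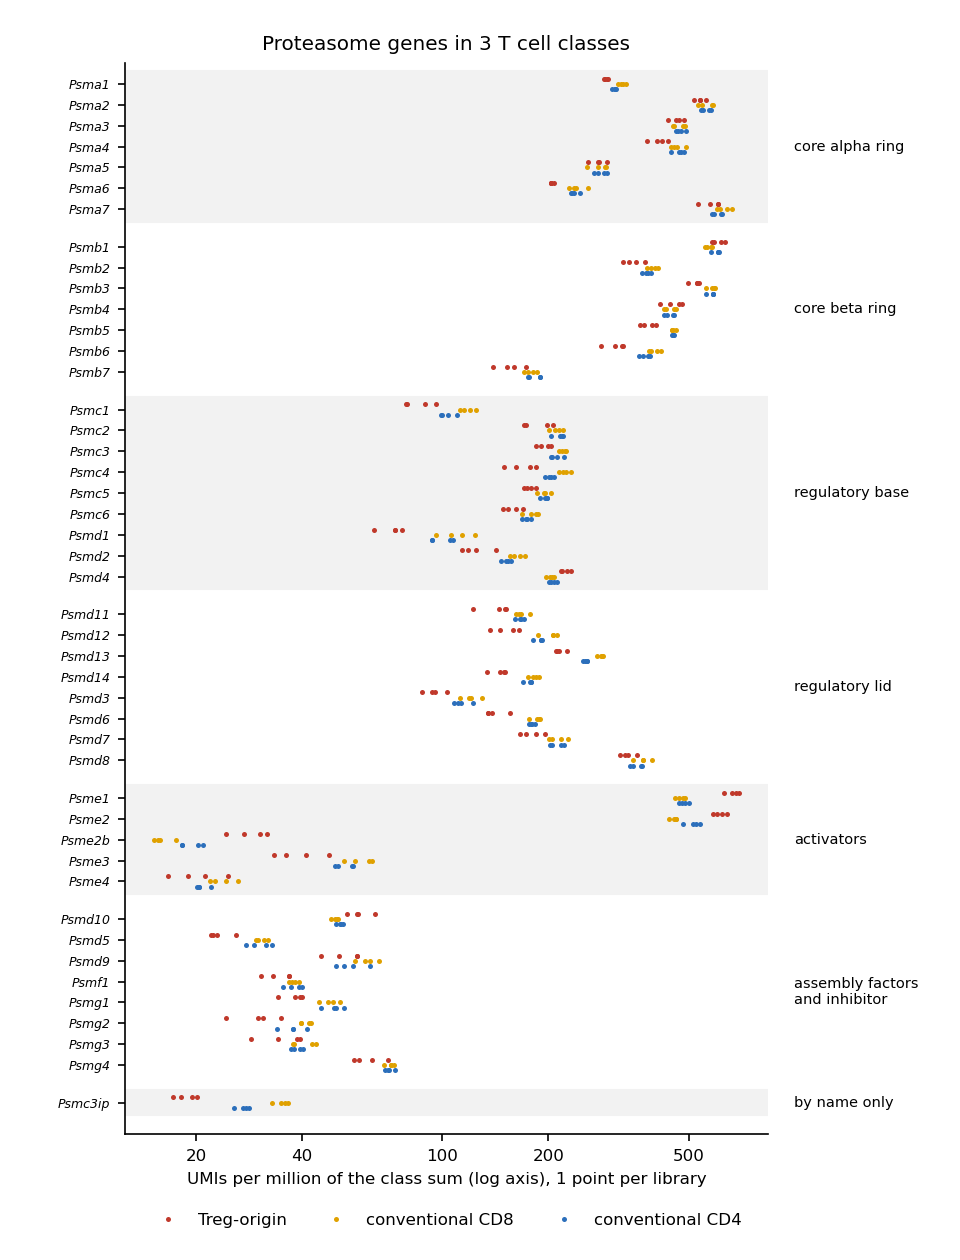
Level of each of the 45 genes in CPM of UMIs (log axis), grouped by part of the proteasome, with 1 point per library for Treg-origin, conventional CD8 and conventional CD4 cells. The 4 libraries of a class lie close together, and Psme1, Psme2 and Psme2b are the genes whose Treg-origin points lie clearly to the right, while Psmd1 and Psmc3ip lie to the left.

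Treg-origin cells were set against conventional CD4 cells to see how the proteasome transcripts of the transferred Treg population differ from those of the CD4 cells beside it in the same spleens. The PA28 alpha-beta genes were higher in Treg-origin cells, whereas the core and the 19S regulator were lower or not called different. Of the 45 genes, 4 were higher and 26 lower at an adjusted p of at most 0.05 (edgeR quasi-likelihood test with library as block, n = 4 libraries), where 21.5% of 10775 genes tested were higher and 20.5% lower. The median log2 fold of the members was -0.20, against 0.01 over all genes tested. The libraries differ in Treg genotype and are the replicates here. The block takes up shifts in level that a whole library shares. The test rests on how the class difference varies between libraries, which holds genotype as well as sampling.

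Psme1, the alpha chain of the PA28 cap, had 632, 663, 681 and 694 CPM in Treg-origin cells of the double KO, TIGIT KO, CD226 KO and WT libraries, against 479, 469, 488 and 502 CPM in CD4 cells, in the same order, which is kept below. Every Treg-origin value lay above every CD4 value, with a log2 fold of 0.45 ± 0.04 (SE, adjusted p = 9.19e-07). Psme2, the beta chain, had 585, 642, 603 and 621 CPM in Treg-origin cells, against 526, 482, 516 and 540 CPM in CD4 cells, again without overlap (0.24 ± 0.04, adjusted p = 0.000826). Psme2b had 27.3, 24.4, 30.3 and 31.7 CPM in Treg-origin cells, against 18.2, 18.3, 20.2 and 21.0 CPM in CD4 cells (0.53 ± 0.10, adjusted p = 0.000719). Psme2b is a copy of Psme2 whose transcript matches it at 711 of 716 aligned bases (99.3%), with 264 identical bases in the longest run, and 41 of its bases overlap 9930111J21Rik1 on the same strand, so its counts are uncertain and are no independent sign. The remaining gene that rose was Psmd10, a chaperone of the base known as gankyrin, at 57.6, 64.5, 57.2 and 53.8 CPM in Treg-origin cells, against 52.2, 51.6, 51.2 and 49.9 CPM in CD4 cells (0.17 ± 0.06, adjusted p = 0.0351). Psmd10 lies on the X chromosome. The call of Psmd10 was lost when any 1 library was left out, at log2 folds of 0.12 to 0.19.

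The nuclear cap moved the other way. Psme3 had 47.8, 41.1, 33.2 and 36.0 CPM in Treg-origin cells, against 50.7, 55.9, 49.7 and 55.5 CPM in CD4 cells, so the groups did not overlap (-0.43 ± 0.09, adjusted p = 0.00111). Psme4, the PA200 cap, had 19, 16.7, 21.2 and 24.7 CPM in Treg-origin cells, against 20.4, 20.1, 20.4 and 22.0 CPM in CD4 cells, overlapping and not called (-0.03 ± 0.12, adjusted p = 0.87).

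None of the 31 core and 19S subunits was higher in Treg-origin than in CD4 cells, and 20 were lower: 2 of 7 alpha subunits, 5 of 7 beta subunits, 6 of 9 base subunits and 7 of 8 lid subunits. All 3 standard proteases fell. Psmb5 had 405, 394, 363 and 373 CPM in Treg-origin cells, against 455, 452, 450 and 452 CPM in CD4 cells (-0.25 ± 0.04, adjusted p = 0.00042). Psmb6 had 325, 309, 283 and 323 CPM, against 383, 370, 361 and 388 CPM in CD4 cells (-0.29 ± 0.05, adjusted p = 0.000185). Psmb7 had 173, 139, 153 and 160 CPM, against 189, 175, 176 and 189 CPM in CD4 cells (-0.24 ± 0.06, adjusted p = 0.00483). For each protease the highest Treg-origin library stayed below the lowest CD4 library. Of the beta subunits without a protease site, Psmb1 (0.01) and Psmb4 (0.02) differed by less than their SE of 0.04. Psmb2 and Psmb3, which lack a protease site too, were called lower, so the fall was not confined to the proteases.

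In the 19S regulator the scaffold Psmd1 fell furthest, at 76.6, 73.5, 64.1 and 73.3 CPM in Treg-origin cells, against 93.5, 105, 93.3 and 107 CPM in CD4 cells (-0.48 ± 0.07, adjusted p = 7.9e-05). Part of Psmd1 overlaps Gm21972 on the same strand. The lid subunit Psmd6 (-0.36 ± 0.06, adjusted p = 0.00029), the scaffold Psmd2 (-0.30 ± 0.06, adjusted p = 0.00137) and the deubiquitinase Psmd14 (-0.28 ± 0.06, adjusted p = 0.00109) were lower too, without overlap between the groups. The ubiquitin receptor Psmd4 was not called (0.11 ± 0.05, adjusted p = 0.117), although its 4 Treg-origin values lay above the CD4 values.

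Among the assembly factors Psmd5 fell to 22.0, 22.9, 22.3 and 26.0 CPM in Treg-origin cells, against 27.8, 32.9, 29.2 and 31.6 CPM in CD4 cells (-0.39 ± 0.09, adjusted p = 0.00344). Psmg1, a chaperone that starts alpha ring assembly, fell to 34.2, 40.1, 38.3 and 39.5 CPM, against 49.3, 52.7, 45.3 and 49.9 CPM in CD4 cells (-0.39 ± 0.07, adjusted p = 0.000682). In all, 4 of the 8 assembly factors and inhibitors fell and 1 rose. Psmc3ip, which is no part of the proteasome, fell most of all 45 genes, to 18.1, 20.1, 17.2 and 19.5 CPM in Treg-origin cells, against 28.3, 27.2, 25.7 and 27.7 CPM in CD4 cells (-0.55 ± 0.10, adjusted p = 0.000539).

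The genes of the same pathway that the name pattern misses were read from a list of 26. In Treg-origin against CD4 cells 4 were higher and 10 lower, with a median log2 fold of -0.08. Those higher included Nfe2l2 (0.37), the stress factor Nrf2, the polyubiquitin gene Ubb (0.31), and Sem1 (0.12), a small 19S subunit. Ngly1 (-0.58), an enzyme that Nrf1 needs for its activation, fell furthest, followed by the proteasome-bound deubiquitinase Usp14 (-0.53) and the ubiquitin shuttle Ubqln2 (-0.45). Nfe2l1 itself had 16.2 ± 1.67 CPM in Treg-origin, 11.8 ± 0.539 in CD8 and 14.6 ± 0.692 in CD4 cells. The inducible proteases all rose: Psmb8 had 1516 ± 44.3 CPM in Treg-origin and 1235 ± 27.7 CPM in CD4 cells (log2 fold 0.28, adjusted p = 4.15e-06), Psmb9 596 ± 39.9 and 422 ± 18.7 CPM (0.48, adjusted p = 6.33e-07), and Psmb10 418 ± 25.1 and 331 ± 12.3 CPM (0.33, adjusted p = 5.52e-05). All 16 genes of an interferon gamma response list were higher as well, with a median of 1.12 and Iigp1, an immunity-related GTPase, at 3.67.

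The comparison with conventional CD8 cells uses the same Treg-origin libraries, so it is no independent repeat. It called 4 members higher and 33 lower, against 26.1% and 26.4% of 10899 genes tested, with a median of -0.24 against -0.00 over all genes. Psme1 had 471, 457, 481 and 489 CPM in CD8 cells, below every Treg-origin value (0.45 ± 0.04, adjusted p = 1.44e-07), and Psme2 had 461, 439, 462 and 455 CPM (0.39 ± 0.04, adjusted p = 1.91e-06). Psme2b (0.79 ± 0.11, adjusted p = 1.66e-05) and Psmd10 (0.19 ± 0.07, adjusted p = 0.0379) were the others higher, Psmd10 again not when any 1 library was left out (0.12 to 0.22). Psme4 was not called (-0.26 ± 0.11, adjusted p = 0.0656), and was called lower without the WT library (-0.38, adjusted p = 0.024). Of the core and 19S subunits 25 of 31 were lower, including all 8 lid subunits and 8 of 9 base subunits, and none was higher. Scaling by total UMIs without TMM called 2 of them higher, Psmb1 (0.09, adjusted p = 0.0443) and Psmd4 (0.14, adjusted p = 0.0273). Psmd1 had 106, 114, 95.8 and 124 CPM in CD8 cells, above every Treg-origin library (-0.65 ± 0.07, adjusted p = 1.02e-06). The ATPase Psmc1 fell to 89.3, 96.0, 79.0 and 79.4 CPM in Treg-origin cells, against 115, 120, 112 and 125 CPM in CD8 cells (-0.50 ± 0.07, adjusted p = 1.58e-05). The falls of Psmc3ip (-0.94 ± 0.09, adjusted p = 7.78e-07), Psme3 (-0.61 ± 0.09, adjusted p = 3.46e-05) and the alpha ring chaperone Psmg2 (-0.49 ± 0.09, adjusted p = 0.000367) complete the 5 with the largest fall. Psmb5 (-0.28), Psmb6 (-0.41) and Psmb7 (-0.23, with overlapping ranges) were called lower, and Psmb8 (0.24), Psmb9 (0.44) and Psmb10 (0.22) higher. Of the 26 other pathway genes 5 rose and 11 fell, with a median of -0.12.

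**Figure D2:**
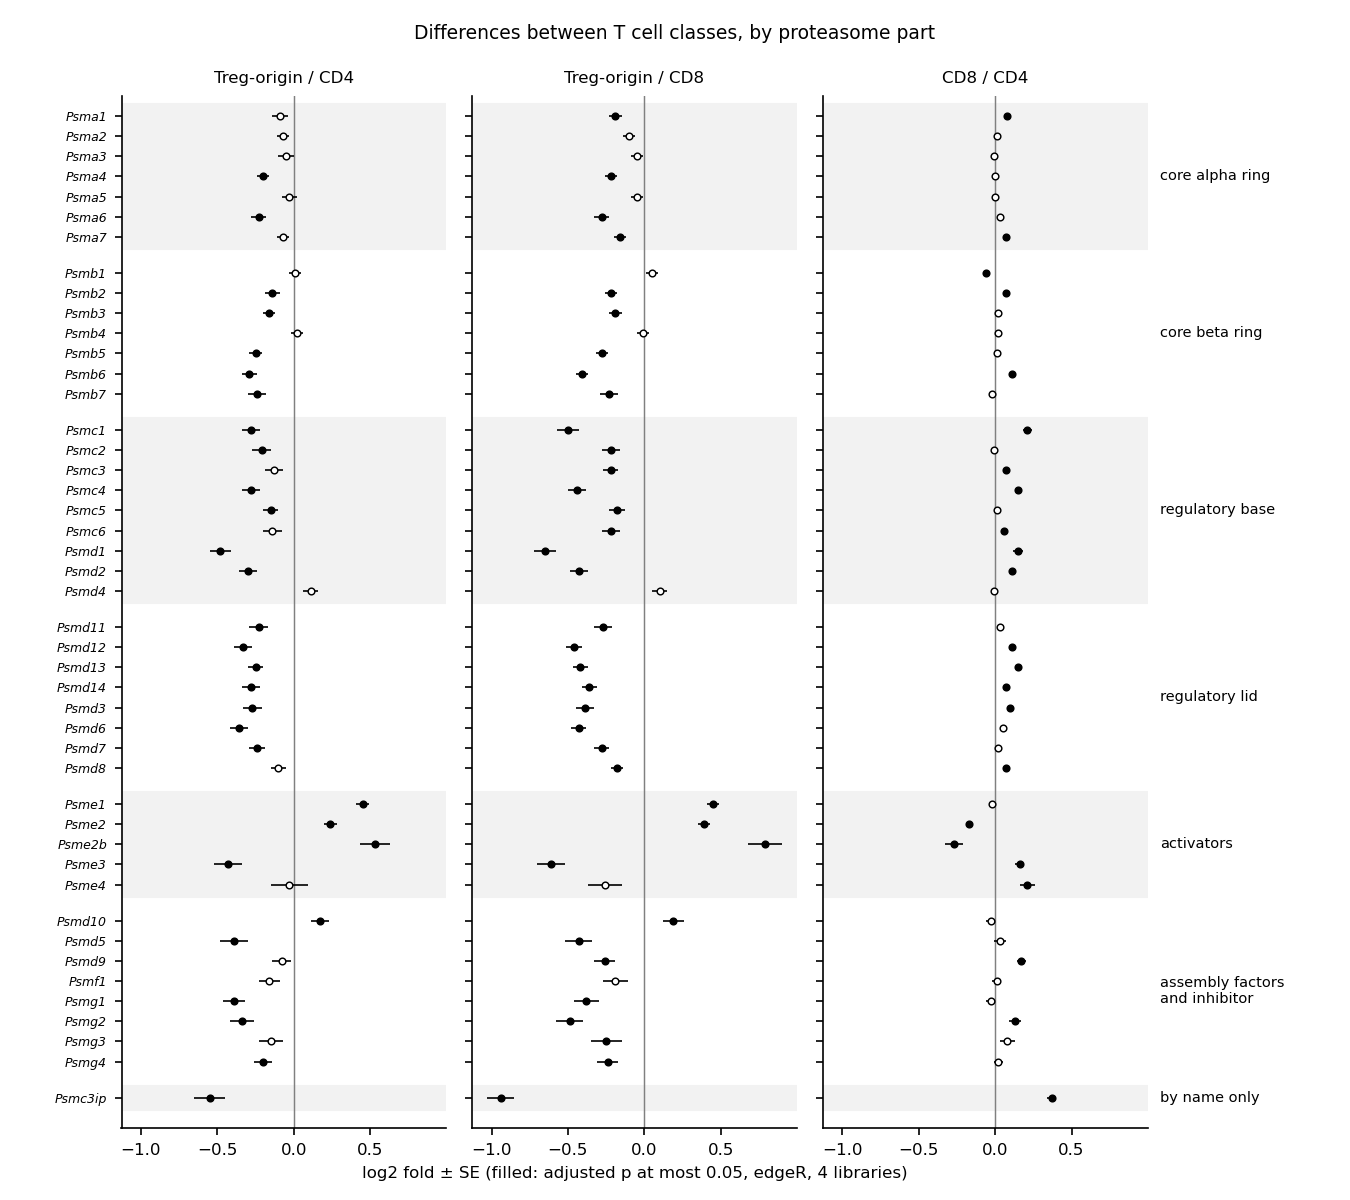
Log2 fold (with SE) of each gene for Treg-origin over CD4, Treg-origin over CD8 and CD8 over CD4 cells, 4 libraries each, filled where the adjusted p is at most 0.05. In both Treg-origin panels Psme1, Psme2, Psme2b and Psmd10 are the filled points right of 0, and no core or 19S subunit is (2 are against CD8 without TMM scaling), while the CD8 over CD4 panel stays near 0.

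The balance between parts of the proteasome differed by class. Core and 19S subunits summed to 8342 ± 174 CPM in Treg-origin, 9337 ± 259 in CD8 and 9148 ± 184 in CD4 cells (SD, n = 4 libraries each), and the Treg-origin libraries (8107 to 8486) did not overlap the CD8 (9080 to 9655) or CD4 libraries (8938 to 9361). Psme1, Psme2 and Psme2b summed to 1309 ± 44.8 CPM in Treg-origin, 944.7 ± 22.7 in CD8 and 1020 ± 38.4 in CD4 cells. Per core and 19S transcript this was 0.147 to 0.162 in Treg-origin, 0.0993 to 0.106 in CD8 and 0.107 to 0.115 in CD4 cells, with the lowest Treg-origin value in double KO. The 3 inducible proteases summed to 2530 ± 74.9 CPM in Treg-origin, 2023 ± 53.8 in CD8 and 1989 ± 46.3 in CD4 cells, and the 3 standard ones to 850.0 ± 42.7, 1032 ± 24.6 and 1010 ± 20.9 CPM. The ratio of inducible to standard protease transcripts was 2.77 to 3.18 in Treg-origin, 1.93 to 2.04 in CD8 and 1.92 to 2.04 in CD4 cells. The assembly factors summed to 333.6 ± 3.11, 380.1 ± 10.2 and 371.0 ± 6.38 CPM.

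**Figure D3:**
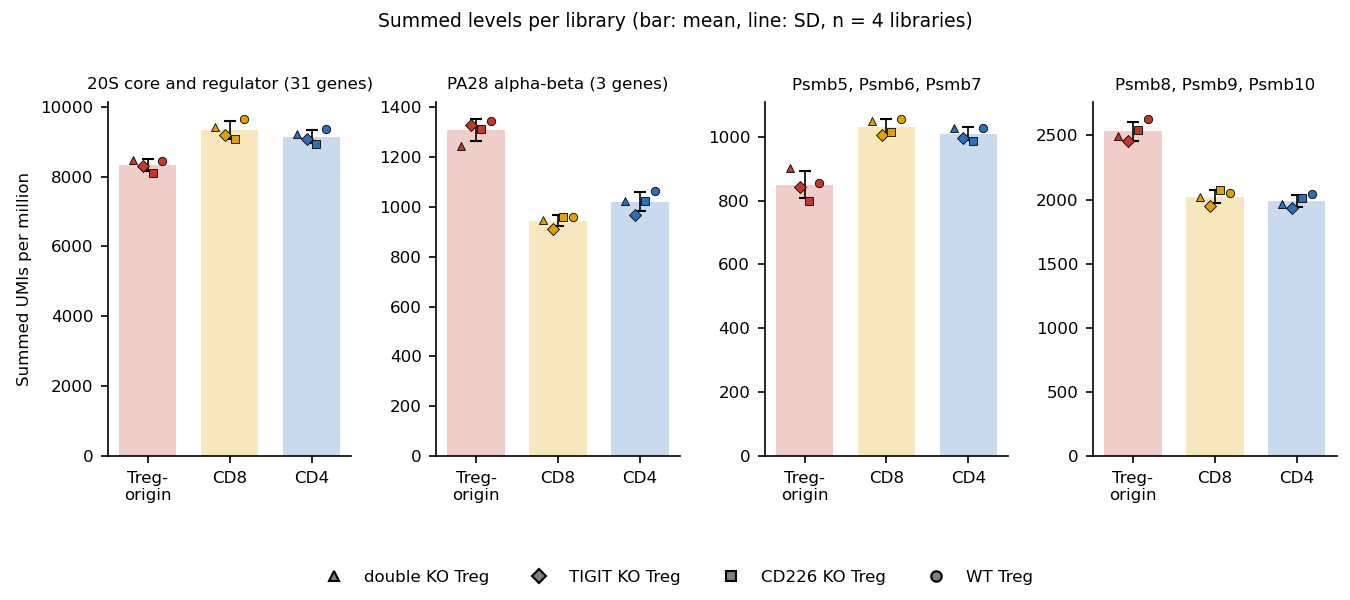
Summed CPM of the core and 19S subunits, the PA28 alpha-beta genes, the standard proteases and the inducible proteases in Treg-origin, CD8 and CD4 cells (bar: mean, line: SD, points: 4 libraries). Treg-origin bars are lower for core and 19S subunits (8342) and standard proteases (850.0) and higher for PA28 alpha-beta (1309) and inducible proteases (2530).

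Other measures moved with these differences. The 39 genes of an interferon response list summed to 5746 to 7070 CPM in Treg-origin, 1457 to 1647 in CD8 and 2104 to 2316 in CD4 cells, and the 30 mitosis genes to 3115 to 4430, 5933 to 6212 and 5565 to 5975 CPM. In cells of every class with 6 to 12 interferon list UMIs per 2000 UMIs, a set chosen after the first results, 1 member was higher in Treg-origin than in CD4 cells, Psme1 (0.28, adjusted p = 0.000809), and 1 was lower, Psmd1 (-0.38, adjusted p = 0.0256), against 7.20% and 4.74% of 8873 genes tested there, and the median was -0.04. Within this band 454 Treg-origin, 1513 CD8 and 2318 CD4 cells remained, so these calls rest on fewer cells. Against CD8 cells in the band 8 members were lower and none higher, against 9.78% and 12.2% of genes, with Psme1 at 0.15 (adjusted p = 0.0504), Psmd1 at -0.48 (adjusted p = 0.0014) and a median of -0.07. In cells without a mitosis list UMI, 1 was higher and 9 lower against CD4 cells, where 10.7% of genes were higher and 9.71% lower, with a median of -0.17. Against CD8 cells none of 44 was higher and 19 were lower, where 16.2% and 16.7% of genes were, with a median of -0.26. Both sets held fewer cells, and fewer of all genes were called in them. Restricted to cells with at least 2 T cell marker UMIs and more of them than of myeloid, B and erythroid marker UMIs, also chosen after the first results, 3 were higher and 28 lower against CD4 cells (21.4% and 21.9% of genes) and 4 and 33 against CD8 cells (26.2% and 26.6%), with medians of -0.20 and -0.23. Restricted to the 346 Treg-origin cells with a Foxp3 UMI, 2 were higher and 20 lower against CD4 cells (9.85% and 13.2% of genes), and 3 and 29 against CD8 cells (14.7% and 17.0%).

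Differences between conventional CD8 and CD4 cells were small. In CD8 cells 20 members were higher and 3 lower, against 22.9% and 23.7% of 11490 genes tested, and the median was 0.03 against -0.00 over all genes. Without the library block 7 were called higher and 2 lower, against 14.9% and 16.3% of genes in that fit. The share called higher was then near that of all genes. The largest rises were in Psmc3ip, at 34.9, 35.8, 32.9 and 36.5 CPM in CD8 cells, against 28.3, 27.2, 25.7 and 27.7 CPM in CD4 cells (0.37 ± 0.03, adjusted p = 3.52e-06), and in Psmc1, at 115, 120, 112 and 125 CPM, against 99.9, 110, 99.2 and 104 CPM in CD4 cells (0.21 ± 0.03, adjusted p = 6.07e-05). Psmc3ip and Psmc1 did not overlap between the classes. Psme4 rose to 26.3, 21.9, 22.6 and 24.3 CPM, against 20.4, 20.1, 20.4 and 22.0 CPM in CD4 cells, with overlap (0.21 ± 0.05, adjusted p = 0.00478), and so did Psmd9 (0.17 ± 0.03, adjusted p = 0.000523), a base chaperone, and Psme3 (0.16 ± 0.03, adjusted p = 0.000775). The 3 lower genes were Psme2b (-0.27 ± 0.06, adjusted p = 0.00272), Psme2 (-0.17 ± 0.02, adjusted p = 3.5e-05) and Psmb1 (-0.06 ± 0.02, adjusted p = 0.017, not called without the WT library at -0.05). Psme1, the partner of Psme2, was not called (-0.02 ± 0.02, adjusted p = 0.39). In cells without a mitosis list UMI Psme1 was higher in CD8 cells (0.20, adjusted p = 0.000481), with 11 members higher and none lower (8.35% and 6.83% of genes). In the interferon band Psme1 was higher as well (0.14, adjusted p = 0.00191), with 6 higher and none lower (8.62% and 9.55%). In the cells without a mitosis list UMI the log2 folds of Psmb1 (0.06), Psme2b (0.16) and Psme4 (-0.08) had the opposite sign and were not called. Of the 26 other pathway genes 2 were higher and 6 lower, and of the interferon gamma list 1 was higher and 13 lower.

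Cells within each class were then compared by state, since both cycling and interferon response differed between classes. Each cell was thinned to 2000 UMIs and scored by its UMIs in a list that holds no proteasome gene. Cells at or above the 80th percentile of the score were set against cells at or below the 20th, with limits of its own for each class. Depth moved with both states: mitosis-high cells had 6517 to 10284 UMIs per cell in Treg-origin, 11480 to 15015 in CD8 and 10003 to 12844 in CD4 cells, against 3783 to 5036, 7113 to 9734 and 5351 to 6896 in mitosis-low cells. The interferon-high cells had 3436 to 4687, 9354 to 11511 and 5941 to 7329, against 6630 to 8229, 10900 to 15414 and 9123 to 11849 in interferon-low cells. The part of depth in the state results was not tested beyond the thinned values below.

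Mitosis-high cells had more of several 19S ATPases and less PA28 alpha-beta. In Treg-origin cells 13 members were higher and 3 lower, against 17.3% and 15.1% of 5626 genes tested, with a median of 0.16 against -0.03. In CD4 cells 22 were higher and 6 lower, against 29.9% and 30.0% of 9818, with a median of 0.07 against -0.02. In CD8 cells 3 were higher and 18 lower, against 24.1% and 23.7% of 9729, with a median of -0.05 against -0.01. Core and 19S subunits numbered 11 higher and 1 lower in Treg-origin, 3 and 14 in CD8, and 17 and 2 in CD4 cells. DESeq2 called 3 higher and none lower in Treg-origin cells (10.0% and 4.34% of genes), where 294 mitosis-high and 501 mitosis-low cells were available. It called 10 lower in CD8 cells (12.3%, with 14.0% of genes higher). Thinned sums gave 6 and 1 of 35 members tested in Treg-origin (16.2% and 12.4% of genes), 3 and 11 in CD8 (16.7% and 15.9%), and 14 and 7 in CD4 cells (22.8% and 22.2%). In Treg-origin cells 1 was lower without the TIGIT KO library and likewise without the WT library. Among cells with more T cell than other marker UMIs the counts were those of all cells, 13 and 3, 3 and 18, and 22 and 6.

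Psmc1 was higher in mitosis-high cells of all 3 classes. It had 99.5, 115, 103 and 101 CPM in mitosis-high Treg-origin cells, against 63.6, 61.5, 54.2 and 62.0 CPM in mitosis-low ones (0.78 ± 0.15, adjusted p = 0.000495). In CD4 cells it had 117, 107, 107 and 112 CPM, against 74.6, 77.9, 70.6 and 77.6 CPM (0.60 ± 0.05, adjusted p = 1.47e-11), and in CD8 cells 113, 124, 113 and 116 CPM, against 95.3, 90.1, 88.2 and 104 CPM (0.30 ± 0.05, adjusted p = 1.8e-05). Another ATPase, Psmc3, was higher by 0.63 ± 0.12 (adjusted p = 0.000294) in Treg-origin, 0.17 ± 0.04 (adjusted p = 0.000825) in CD8 and 0.47 ± 0.04 (adjusted p = 2.85e-11) in CD4 cells, and no library of either state overlapped the other. The deubiquitinase Psmd14 was higher in Treg-origin (0.53 ± 0.12, adjusted p = 0.00218) and CD4 cells (0.39 ± 0.04, adjusted p = 6e-09) and not called in CD8 cells (0.07 ± 0.04, adjusted p = 0.13). Psmc3ip, the recombination factor, reached 30.9, 21.7, 28.2 and 30.1 CPM in mitosis-high Treg-origin cells, against 2.05, 6.84, 7.48 and 7.04 CPM in mitosis-low ones (2.19 ± 0.38, adjusted p = 0.000142), and 0.91 ± 0.11 (adjusted p = 2.46e-08) in CD4 cells. Psmg2 was higher in Treg-origin (0.80 ± 0.29, adjusted p = 0.0377, 3 of 4 libraries) and CD4 cells (0.32 ± 0.07, adjusted p = 0.000369). In Treg-origin cells its call was lost without the double KO, TIGIT KO or WT library (0.60 to 0.71). The nuclear cap gene Psme3 rose in CD4 cells (0.33 ± 0.07, adjusted p = 0.000122), and the lid subunit Psmd11 in CD8 cells (0.13 ± 0.04, adjusted p = 0.0124, not called without the WT library at 0.10).

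Psme1 fell in mitosis-high cells of each class, to 589, 625, 583 and 642 CPM in Treg-origin cells, against 679, 727, 768 and 729 CPM in mitosis-low ones (-0.25 ± 0.07, adjusted p = 0.0106). Its fold was -0.29 ± 0.03 in CD8 (adjusted p = 1.49e-09) and -0.25 ± 0.03 in CD4 cells (adjusted p = 1.13e-08). Psme2 fell by 0.24 ± 0.08, 0.27 ± 0.03 and 0.32 ± 0.03 on the log2 scale in Treg-origin, CD8 and CD4 cells (adjusted p = 0.0247, 8.58e-09 and 9.81e-11), with overlap in Treg-origin cells only, where the call was lost without the TIGIT KO, CD226 KO or WT library (-0.21 to -0.20). Psma7, the most abundant alpha subunit, fell in CD8 cells to 507, 537, 515 and 562 CPM in mitosis-high cells, against 654, 690, 641 and 695 CPM in mitosis-low ones (-0.34 ± 0.03, adjusted p = 2.8e-11), whereas in Treg-origin cells it had 534, 539, 519 and 579 CPM, against 536, 536, 503 and 583 CPM, and was not called (0.00 ± 0.08, adjusted p = 0.981). Psmg4, an alpha ring chaperone, fell in CD8 (-0.42 ± 0.06, adjusted p = 5.78e-07) and CD4 cells (-0.34 ± 0.06, adjusted p = 7.97e-06), as did Psmb1 (-0.23 and -0.19), and Psmg3 in CD4 cells (-0.23, not called without the TIGIT KO library at -0.18). The ubiquitin receptor Psmd4 fell in Treg-origin cells (-0.31 ± 0.11, adjusted p = 0.0373), a call lost without the double KO, TIGIT KO or WT library (-0.34 to -0.20). The proteases Psmb5 (0.14) and Psmb7 (0.25) were higher in mitosis-high CD4 cells, and Psmb6 in Treg-origin (0.38 ± 0.09, adjusted p = 0.00319) and CD4 cells (0.32 ± 0.03, adjusted p = 1.01e-09), while none of these 3 was called in CD8 cells (-0.04, 0.00 and 0.06 for Psmb5, Psmb7 and Psmb6). Without the WT library Psmb5 in Treg-origin cells (0.29 ± 0.09, adjusted p = 0.0123) was not called (0.26). Of the other pathway genes 4 of 22 tested rose and 2 fell in Treg-origin, 8 of 26 rose and 7 fell in CD8, and 12 of 26 rose and 7 fell in CD4 cells. Of the 16 interferon gamma response genes 6 fell in Treg-origin and 8 in CD8 cells, with none higher, and 9 fell and 1 rose in CD4 cells.

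The difference in effect between classes was tested itself, as a contrast in 1 fit over all 3 classes, added after the first results. This contrast was run on the reported sums only, and not by DESeq2, on thinned sums or under the other alternatives. The mitosis effect in Treg-origin cells, which enters it, was called for fewer members by DESeq2 and when thinned. Between Treg-origin and CD4 cells the mitosis effect was higher for 8 members and lower for none, against 4.40% and 1.03% of 10365 genes tested, and 7 of the 8 were core or 19S subunits. They included Psmd6 (0.46 ± 0.12, adjusted p = 0.015), Psma1 (0.36 ± 0.09, adjusted p = 0.00711) and Psmb5 (0.27 ± 0.07, adjusted p = 0.0197), besides Psmc3ip (1.42 ± 0.40, adjusted p = 0.0258). Between CD8 and CD4 cells the effect was higher for none and lower for 17, against 5.16% and 10.2% of genes, with Psmc3ip at -1.07 ± 0.13 (adjusted p = 1.2e-07), Psmd14 at -0.30 ± 0.06 (adjusted p = 0.000464) and Psmb6 at -0.24 ± 0.05 (adjusted p = 0.000523). The median difference was 0.20 for Treg-origin minus CD4, against 0.08 over all genes, and -0.14 for CD8 minus CD4, against 0.02. The limits that set the states differ between classes: mitosis-high began at 10 UMIs of the list in Treg-origin and at 19 in CD8 and CD4 cells, and mitosis-low ended at 0, 3 and 1. Cells within 1 UMI of the high limit numbered 69, 751 and 527, of 1427, 10947 and 11694 scored. Cells at the low limit or 1 UMI above it numbered 772, 1098 and 2140.

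**Figure D4:**
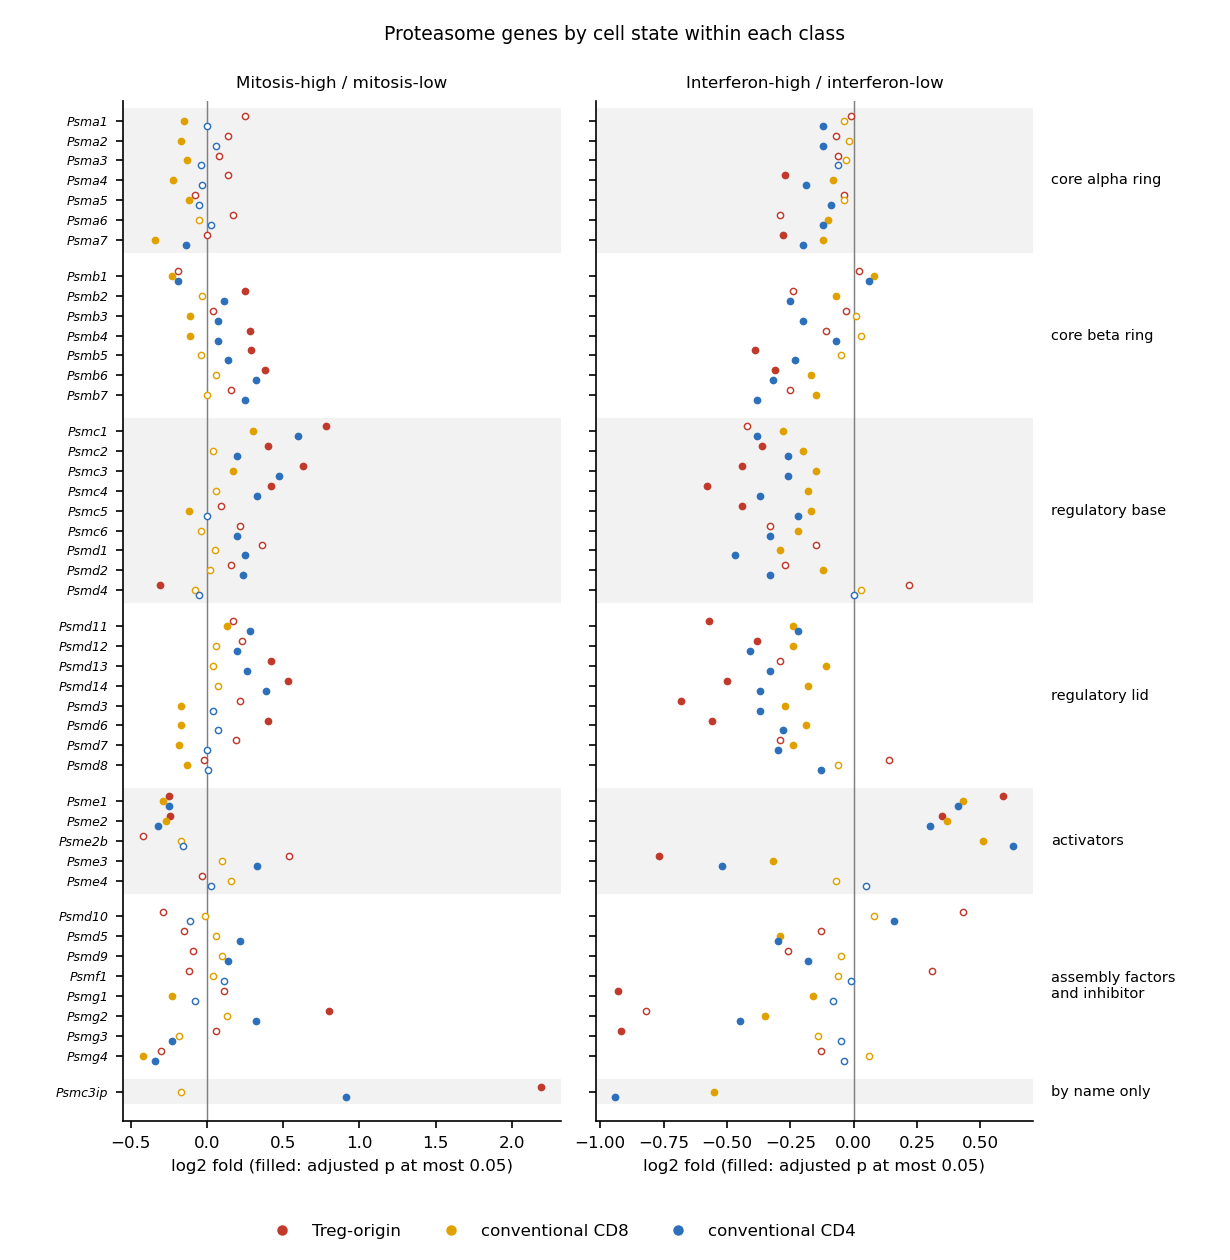
Log2 fold of each gene for mitosis-high over mitosis-low cells (left) and interferon-high over interferon-low cells (right) within Treg-origin, CD8 and CD4 cells, filled where the adjusted p is at most 0.05 (edgeR, 4 libraries). In the left panel Psmc1 and Psmc3 lie right of 0 and Psme1 and Psme2 left of it in each class, and in the right panel Psme1 and Psme2 lie right of 0 while most core and 19S subunits lie left.

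Interferon-high cells had more PA28 alpha-beta in each class. Most core and 19S subunits were called lower in conventional cells, in CD8 cells not under every alternative (10 to 23 of 31). Fewer were called lower in Treg-origin cells, where the calls depended on the method. In Treg-origin cells 2 of 42 members tested were higher and 16 lower, against 17.5% and 18.8% of 4426 genes tested, with a median of -0.28 against 0.01. In CD8 cells 4 of 45 were higher and 26 lower, against 20.3% and 20.8% of 10141, with a median of -0.12 against 0.01. In CD4 cells 5 were higher and 33 lower, against 27.6% and 26.6% of 9726, with a median of -0.22 against 0.02. Core and 19S subunits numbered none higher and 13 lower in Treg-origin, 1 and 21 in CD8, and 1 and 28 in CD4 cells. The 1 higher was Psmb1 both times (0.08 and 0.06), a call that leaving out the double KO, CD226 KO or WT library ended in both classes, and the TIGIT KO library in CD4 cells (0.04 to 0.08). In Treg-origin cells, with 302 interferon-high and 336 interferon-low cells, DESeq2 called 1 higher and none lower (9.22% and 9.51% of genes), and 9 were lower without the double KO library and likewise without the TIGIT KO library. Thinned sums gave 1 and 5 of 33 members tested in Treg-origin (14.9% and 15.2% of genes), 5 and 12 in CD8 (12.6% and 12.8%), and 5 and 26 in CD4 cells (21.7% and 20.9%). In Treg-origin cells the share of members lower was thus below that of all genes by DESeq2 and near it when thinned. In CD4 cells 3 were higher without the double KO, CD226 KO or WT library. Among cells with more T cell than other marker UMIs the counts were 2 and 15, 4 and 26, and 5 and 33.

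Psme1 had 755, 756, 841 and 927 CPM in interferon-high Treg-origin cells, against 577, 556, 543 and 550 CPM in interferon-low ones (0.59 ± 0.09, adjusted p = 6.91e-06). In CD8 cells it had 548, 560, 573 and 599 CPM, against 429, 407, 430 and 426 CPM (0.43 ± 0.03, adjusted p = 1.92e-11), and in CD4 cells 572, 555, 592 and 598 CPM, against 424, 427, 425 and 451 CPM (0.41 ± 0.03, adjusted p = 1.77e-11). No library of interferon-low cells reached one of interferon-high cells in its class. Psme2 rose by 0.35 ± 0.09 (adjusted p = 0.00428), 0.37 ± 0.03 (adjusted p = 4.7e-10) and 0.30 ± 0.03 (adjusted p = 5.17e-09) in Treg-origin, CD8 and CD4 cells, also without overlap, and in Treg-origin cells it was not called without the WT library (0.29, adjusted p = 0.0521). Psme2b passed the filter on low counts in the conventional classes only, and rose by 0.51 ± 0.09 in CD8 (adjusted p = 4.9e-05) and 0.63 ± 0.10 in CD4 cells (adjusted p = 1.54e-05). Psmd10 rose in CD4 cells (0.16 ± 0.06, adjusted p = 0.0367), a call lost without the double KO, CD226 KO or WT library (0.10 to 0.17). Psmb8, Psmb9 and Psmb10 were higher in every class, at 0.34, 0.52 and 0.27 in Treg-origin, 0.17, 0.28 and 0.37 in CD8, and 0.16, 0.40 and 0.34 in CD4 cells. Of the interferon gamma response genes, which share none with the scored list, 13 of 14 tested rose in Treg-origin and 16 of 16 in CD8 and in CD4 cells, with medians of 0.86, 0.68 and 0.81. Of the other pathway genes 2 of 20 tested rose and 5 fell in Treg-origin, 4 of 26 rose and 9 fell in CD8, and 3 of 26 rose and 9 fell in CD4 cells.

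Psme3, the cap that interferon gamma does not induce, fell by 0.77 ± 0.28 (adjusted p = 0.0328), 0.32 ± 0.05 (adjusted p = 3.55e-05) and 0.52 ± 0.06 (adjusted p = 3.34e-07) on the log2 scale in Treg-origin, CD8 and CD4 cells, and its call in Treg-origin cells was lost without the double KO or CD226 KO library (-0.65 to -0.55). In interferon-high CD4 cells it had 36.9, 38.8, 38.7 and 45.6 CPM, against 55.1, 56.5, 56.7 and 59.5 CPM in interferon-low ones. Psmb5 had 314, 320, 318 and 311 CPM in interferon-high Treg-origin cells, against 463, 425, 397 and 415 CPM in interferon-low ones (-0.39 ± 0.11, adjusted p = 0.00451), and 401, 425, 397 and 388 CPM, against 462, 475, 472 and 470 CPM, in CD4 cells (-0.23 ± 0.03, adjusted p = 5.39e-07). In CD8 cells Psmb5 was not called (-0.05 ± 0.03, adjusted p = 0.132), while Psmb6 fell in all 3 classes (-0.31, -0.17 and -0.32 in Treg-origin, CD8 and CD4 cells), in Treg-origin cells not without the double KO, CD226 KO or WT library (-0.32 to -0.26). Psmb7 fell in CD8 (-0.15) and CD4 cells (-0.38) and was not called in Treg-origin cells (-0.25, adjusted p = 0.192), except without the WT library (-0.45, adjusted p = 0.0446). The lid subunit Psmd3 had 75.5, 60.1, 77.0 and 67.1 CPM in interferon-high Treg-origin cells, against 111, 106, 110 and 127 CPM in interferon-low ones (-0.68 ± 0.17, adjusted p = 0.00301). The ATPase Psmc4 had 117, 130, 132 and 137 CPM, against 201, 223, 188 and 182 CPM (-0.58 ± 0.13, adjusted p = 0.0013). Psmg1 (-0.93 ± 0.30, adjusted p = 0.0176) and Psmg3 (-0.92 ± 0.31, adjusted p = 0.0212) fell further, with overlap between the states, and both calls were lost without the TIGIT KO or WT library (-0.93 to -0.59). In the conventional classes Psmc3ip fell furthest, by 0.55 ± 0.07 in CD8 (adjusted p = 5.54e-07) and 0.94 ± 0.10 in CD4 cells (adjusted p = 2.13e-08), followed in CD8 cells by Psmg2 (-0.35 ± 0.06, adjusted p = 5.2e-05), Psme3, Psmd1 (-0.29) and Psmd5 (-0.29). In CD4 cells Psme3, Psmd1 (-0.47 ± 0.05, adjusted p = 2.09e-08), Psmg2 (-0.45 ± 0.07, adjusted p = 1.6e-05) and the lid subunit Psmd12 (-0.41) came next.

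The interferon effect was higher in CD8 than in CD4 cells for 11 members and lower for none, against 9.58% and 5.07% of 10323 genes, among them Psmb5 (0.20 ± 0.04, adjusted p = 0.00136), Psmb7 (0.24 ± 0.06, adjusted p = 0.00543) and the lid subunit Psmd13 (0.24 ± 0.06, adjusted p = 0.00502). A higher value here is a less negative one: Psmb7 was at -0.15 in CD8 and -0.38 in CD4 cells, and Psmb5 at -0.05, not called, in CD8 and -0.23 in CD4 cells. Between Treg-origin and CD4 cells none was higher and 1 lower, Psmg1 (-0.95 ± 0.29, adjusted p = 0.0391), against 0.969% and 4.37% of genes. The members' share was below that of all genes. The interferon-high limit was 22 UMIs of the list in Treg-origin, 5 in CD8 and 8 in CD4 cells, and the interferon-low limit 6, 1 and 1, so the same word covers unlike ranges. Cells within 1 UMI of the high limit numbered 89, 2383 and 1097, and cells at the low limit or 1 UMI above it 134, 4272 and 3623. In CD8 cells 2629 cells were interferon-high and 3420 interferon-low, so most CD8 cells lay near a limit.

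Between Treg genotypes each contrast sets 1 library against 1 other, so there is no test, and intervals are exact 95% binomial ones that hold counting error only. Few proteasome genes passed a log2 ratio of 0.32 between Treg genotypes in any class, and the 5 contrasts share libraries. Of the 44 members averaging 20 CPM or more, those past a log2 ratio of 0.32 either way in Treg-origin cells numbered 0 for CD226 KO over WT, 2 for double KO over TIGIT KO, 4 for TIGIT KO over WT, 2 for double KO over CD226 KO and 2 for double KO over WT. Over all 5171 genes at that level the shares past that ratio were 17.7%, 18.4%, 15.0%, 19.2% and 16.0%. In CD8 cells the counts were 1, 0, 0, 0 and 0, against 2.87%, 3.03%, 1.41%, 1.43% and 1.68% of genes, and in CD4 cells 0 in each, against 1.10%, 3.26%, 1.02%, 0.963% and 1.30%. These genes were not matched to the members by level, and ratios of low counts spread wider. A lower share among the members is therefore no sign that they were steadier. No member passed the fold in the same direction in both contrasts of one loss. The same was not counted over all genes, so it is no result about the members.

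The members past the fold in Treg-origin cells were of low level, at most 57.2 CPM. Psme3 had 47.8 CPM in double KO and 33.2 CPM in CD226 KO Treg-origin cells, a ratio of 1.44 (1.03 to 2.03), and 47.8 CPM in double KO against 36.0 CPM in WT, a ratio of 1.33 (0.982 to 1.80). Psme4 had 16.7 CPM in TIGIT KO against 24.7 CPM in WT (0.676, 0.431 to 1.05) and 19 CPM in double KO against 24.7 CPM in WT (0.770). Psmg2 had 24.4 CPM in double KO against 34.9 CPM in TIGIT KO (0.700, 0.478 to 1.02) and 30.9 CPM in CD226 KO (0.790). Psmd9 had 57.1 CPM in double KO against 45.4 CPM in TIGIT KO (1.26, 0.952 to 1.67), and 45.4 CPM in TIGIT KO against 57.2 CPM in WT (0.793). Psme2b (0.769) and Psmg3 (0.742) were lower in TIGIT KO than in WT. The interval excluded 1 for Psme3 in double KO over CD226 KO. In CD8 cells Psmd1 had 95.8 CPM in CD226 KO against 124 CPM in WT (0.774, 0.737 to 0.813). Psme1, with far more UMIs, had 632 CPM in double KO against 694 CPM in WT Treg-origin cells (0.911, 0.846 to 0.981).

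The medians over the members were small, and in each contrast except double KO over WT they had the same sign in all 3 classes, although only the Treg-origin cells carry the genotypes. In mitosis-low Treg-origin cells the median for double KO over CD226 KO was -0.02, so the shared sign of that contrast was lost there. For CD226 KO over WT 10 members in Treg-origin, 2 in CD8 and 3 in CD4 cells had a ratio above 1, with medians of -0.05, -0.09 and -0.08 on the log2 scale. For TIGIT KO over WT the counts were 20, 2 and 10, with medians of -0.04, -0.06 and -0.03, and for double KO over CD226 KO 29, 38 and 37, with medians of 0.04, 0.06 and 0.04. For double KO over TIGIT KO they were 26, 28 and 25 (0.04, 0.02 and 0.02), and for double KO over WT 22, 13 and 11 (0.00, -0.04 and -0.02). The medians over all genes lay between -0.02 and 0.03. The counts above 1 have no share of all genes beside them, so only the medians are set against all genes here. The summed level of all members had a ratio of 0.961, 0.945 and 0.956 in Treg-origin, CD8 and CD4 cells for CD226 KO over WT, and of 0.993, 0.978 and 0.983 for double KO over WT. With 1 library per genotype, library and genotype cannot be told apart.

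**Figure D5:**
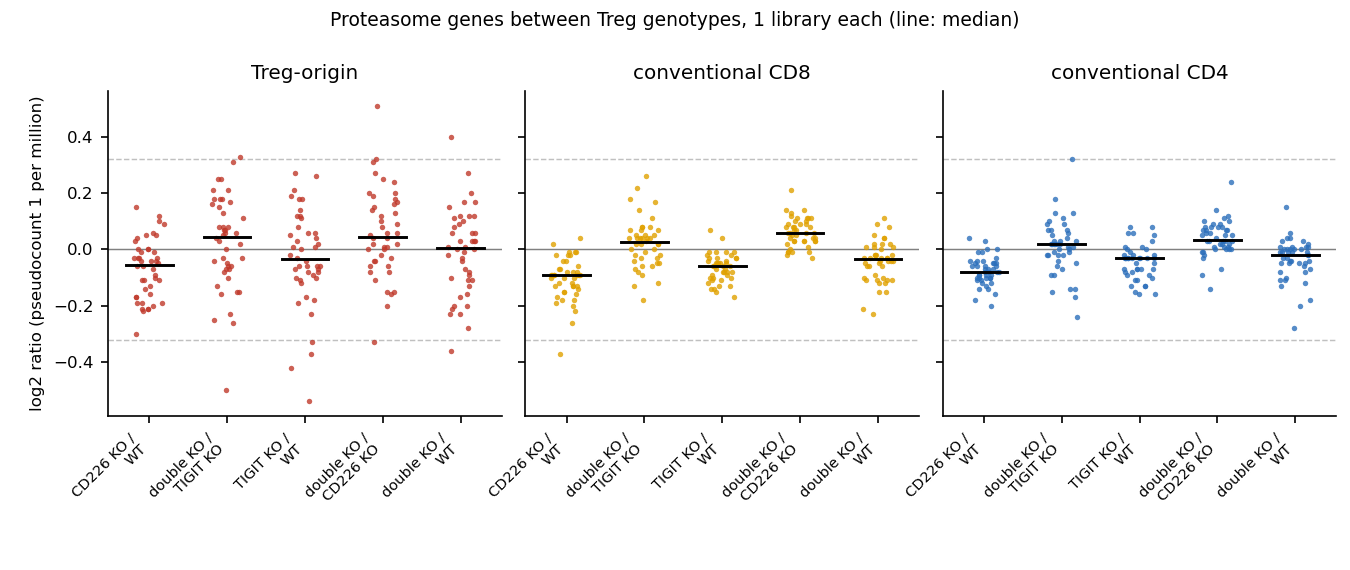
Log2 ratio of each member between Treg genotypes (pseudocount of 1 CPM), 1 library each, in Treg-origin, CD8 and CD4 cells, with a line at the median of each contrast. The points gather near 0, spread wider in Treg-origin cells, and the medians lie between -0.09 and 0.06.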

How the data were processed

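The values are UMI counts per gene and cell, and antibody tag counts for CD45.1 and CD45.2, as deposited by the authors after Cell Ranger 3.1.0 with mm10, per the submitters' processing notes. Barcodes were kept from 500 detected genes up, with mitochondrial UMIs no higher than 10% (36140 of 39421 barcodes). A conventional cell was called CD8 or CD4 by whichever transcripts were more numerous. No doublet caller was used, and cells over 2 times the median UMIs were left out as an alternative. Counts were summed per class and library (1747477 to 2305761 UMIs in Treg-origin, 29270701 to 39929802 in CD8 and 25441326 to 29267615 in CD4 cells).

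Sums were compared by edgeR 4.0.16 (quasi-likelihood test, TMM, filterByExpr, library as block, R 4.3.3) over all genes, with Benjamini-Hochberg adjustment and a threshold of 0.05. The block pairs classes or states of the same library, that is the same pooled sample. SE is the log2 fold divided by the square root of F. The steps were tested on simulated data. DESeq2 1.42.0, other scalings, filters, cell sets, and leaving out each library were alternatives. Between genotypes, with 1 library each, ratios of CPM have exact 95% binomial (Clopper-Pearson) intervals, and log2 ratios a pseudocount of 1. P-values measure how the difference within a library varies between the 4 libraries, and intervals counting error only.

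The members, gene lists and tests were chosen with earlier results of these data known. Named genes are the 3 proteases, Psme1 to Psme4, the ends of the range of levels, and up to 5 called members with the largest rise and fall in each comparison. Others, such as Psma6, Psma7, Psmb4, Psmd2, Psmd4, Psmd6 and Psmd14 between classes, and members past the fold between genotypes, were chosen after their values were seen.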

Additional observations from a re-analysis of the deposited data

Results flagged for a closer look

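The effect of the mitosis state differed between Treg-origin and CD4 cells for 8 members, by a test of the difference itself (edgeR, 4 libraries), all higher in Treg-origin cells, where 4.40% of all genes tested were higher. The log2 differences were 1.42 for Psmc3ip, 0.46 for Psmd6, 0.36 for Psma1 and 0.27 for Psmb5. Between CD8 and CD4 cells it differed for 17 members, all lower in CD8 cells, where 10.2% of all genes were lower, with -1.07 for Psmc3ip, -0.30 for Psmd14, -0.28 for Psmc1, -0.24 for Psmb6, -0.23 for Psmb7 and -0.16 for Psmb5.

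The effect of the interferon state differed between Treg-origin and CD4 cells for 1 member, Psmg1 (-0.95), where 4.37% of all genes were lower, a larger share than 1 of 45. The fall of Psmg1 in Treg-origin cells was not called without the TIGIT KO (-0.59, adjusted p = 0.209) or the WT library (-0.93, adjusted p = 0.0579, edgeR). Between CD8 and CD4 cells it differed for 11, all higher in CD8 cells, where 9.58% of all genes were higher, with 0.41 for Psmc3ip, 0.24 for Psmb7 and for Psmd13, 0.20 for Psmb5 and 0.17 for Psmb6. The tests share the CD4 cells, and the limits of the states differ between classes. None of these tests of a difference was repeated by DESeq2, on thinned sums or under the other alternatives.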

How the results depend on the processing

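Of 1748 values of single members under alternatives, 1547 stayed on the same side of the threshold, and 186 lost and 9 gained a call. Values called in neither fit were counted among the 1547 whatever their sign. A further 6 turned round, with a change of sign and a call in the reported fit, the alternative or both. Those 6 were, in CD8 over CD4 cells without mitosis UMIs, Psmb1 (0.06), Psme1 (0.20), Psme2b (0.16) and Psme4 (-0.08), and, in the interferon band, Psme1 in CD8 over CD4 (0.14) and Psmb7 in Treg-origin over CD8 cells (0.04). The causes of the changes below were not tested. The mitosis-low, band and stricter percentile sets hold fewer cells. The thinned sums of the states use the same cells with fewer UMIs per cell.

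Members called higher and lower in Treg-origin over CD4 cells numbered 1 and 1 in the interferon band (7.20% and 4.74% of genes). They were 1 and 9 in mitosis-low cells (10.7% and 9.71%). Those higher were 2 among cells with a Foxp3 UMI (9.85%) and 2 without cells holding both Cd4 and Cd8 UMIs (1542 of 10712 genes). In Treg-origin over CD8 cells members higher and lower numbered 0 and 8 in the band (12.2% and 9.78%) and 0 and 19 in mitosis-low cells (16.2% and 16.7%). In CD8 over CD4 cells they were 6 and 0 in the band (8.62% and 9.55%) and 11 and 0 in mitosis-low cells (8.35% and 6.83%). Without the library block (replicate block) 7 were higher (14.9%), and 1 was lower after thinning (1663 of 9746 genes). The block moved no other class comparison by over 1.5 times. In mitosis-high Treg-origin cells they were 3 and 0 by DESeq2 (10.0% and 4.34% of genes) and 6 and 1 of 35 thinned (16.2% and 12.4%). Without high-UMI cells they were 7 and 1 of 42 (746 and 571 of 4609 genes). At the 90th and 10th percentiles 6 of 44 were higher (771 of 4847 genes), and without the count filter 0 were lower (761 of 13021 genes). The share of members higher was below that of all genes by DESeq2. It was near that of all genes when thinned, without high-UMI cells and at those percentiles. In mitosis-high CD8 cells 7 were higher at those percentiles (1936 of 8785 genes), and 10 lower by DESeq2 (12.3%) and 11 thinned (15.9%). In mitosis-high CD4 cells 14 were higher thinned (22.8%) and 10 lower without TMM (3289 of 9818 genes). In interferon-high Treg-origin cells members higher and lower numbered 1 and 0 by DESeq2 (9.22% and 9.51% of genes) and 1 and 5 of 33 thinned (14.9% and 15.2%). They were 1 and 3 of 39 without high-UMI cells (424 and 393 of 3895 genes). At the stricter percentiles 5 of 36 were lower (526 of 2808 genes). In each of these the share of members lower was near or below that of all genes. In interferon-high CD8 cells 12 were lower thinned (12.8%). In CD4 cells 3 were higher by DESeq2 (1583 of 9726 genes), with its size factors (2626), without the block (2449) and without the count filter (2557 of 15535).

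Leaving out 1 library each gave 3 higher and 23 to 25 lower in Treg-origin over CD4, 3 and 32 to 34 in Treg-origin over CD8, and 14 to 19 and 2 to 3 in CD8 over CD4 cells. Over all genes 1855 to 2008 were higher and 1847 to 2057 lower of 10800 to 10839 in Treg-origin over CD4 cells. In Treg-origin over CD8 cells 2418 to 2567 and 2603 to 2711 of 10914 to 10942 were, and in CD8 over CD4 cells 2084 to 2325 and 2261 to 2419 of 11507 to 11541. For mitosis, leaving out 1 library gave 9 to 12 and 1 to 2 in Treg-origin, 2 to 3 and 15 to 18 in CD8, and 19 to 20 and 5 to 6 in CD4 cells. Over all genes 857 to 862 were higher and 592 to 678 lower of 5395 to 5942 in Treg-origin cells. In CD8 cells 1967 to 2103 and 1947 to 2074 of 9675 to 9778 were, and in CD4 cells 2685 to 2775 and 2551 to 2710 of 9783 to 9877. For interferon, leaving out 1 library gave 2 to 3 and 9 to 14 in Treg-origin, 3 to 4 and 20 to 24 in CD8, and 3 to 4 and 31 to 33 in CD4 cells. Over all genes 622 to 727 were higher and 669 to 771 lower of 4461 to 4824 in Treg-origin cells. In CD8 cells 1726 to 1884 and 1670 to 1953 of 10034 to 10221 were, and in CD4 cells 2314 to 2445 and 2316 to 2459 of 9678 to 9767.

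Counts of core and 19S subunits moved by over 1.5 times in 57 of 274 settings. Those lower numbered 1 to 27 in Treg-origin over CD4 and 8 to 27 in Treg-origin over CD8 cells, fewest in the interferon band both times, and those higher 4 to 16 in CD8 over CD4 cells. In the band the share of all genes lower was smaller too, at 4.74% against CD4 and 9.78% against CD8 cells. It was 20.5% and 26.4% in the reported fits. Under mitosis 2 to 12 were higher in Treg-origin and 12 to 18 in CD4 cells, and 7 to 14 lower in CD8 cells. Under interferon 0 to 17 were lower in Treg-origin, 10 to 23 in CD8 and 24 to 29 in CD4 cells. The shares of all genes called differed between settings as well, so these ranges do not measure the members alone.

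Genotype medians moved in 14 of 105 settings. For CD226 KO over WT they were -0.12 thinned in Treg-origin, and -0.14 and -0.11 in mitosis-low CD8 and CD4 cells. For double KO over TIGIT KO they were 0.08 in Treg-origin cells at stricter antibody limits and 0.04 in thinned CD4 cells. For TIGIT KO over WT they were -0.09 in Treg-origin cells at those limits and in mitosis-low ones, and -0.05 and -0.08 in mitosis-low CD8 and CD4 cells. For double KO over CD226 KO they were -0.02 and 0.11 in mitosis-low Treg-origin and CD8 cells. For double KO over WT they were -0.08 in Treg-origin cells at those limits, and -0.01 and -0.09 in mitosis-low CD8 and CD4 cells. With 332 to 462 Treg-origin cells per library, 48 of 49 genotype ratios between values under 60 CPM had an interval that held 1, all but Psme3 in double KO over CD226 KO.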
